A study of Mus musculus with 24 samples.

Results

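Metalloproteases of the Mmp, Adam and Adamts families, the Adamts-like (Adamtsl) proteins and the 4 Timp inhibitors were followed in cultured mouse neural stem cells. Members were taken by symbol alone, from probe sets that carry exactly 1 gene symbol of these families. This gave 82 genes on 107 probe sets, out of 21072 genes on 22232 such probe sets. They comprise 23 Mmp genes, 31 Adam genes, 19 Adamts genes on 43 probe sets, 5 Adamtsl genes on 6 probe sets and 4 Timp genes. Cells came from the subventricular zone, the neurogenic niche beside the lateral ventricle, of 6 mice: 818, 862 and 870 were wild-type, and 489, 814 and 858 carry the label Mll1-deleted. All cultures had grown for 5 to 7 passages in a medium with fetal bovine serum, EGF, FGF, N2 supplement and bovine pituitary extract, which is day 0. They were sampled again on days 1, 2 and 4 of differentiation, after serum, EGF and FGF had been withdrawn and the other additions kept. Mll1, now called Kmt2a, encodes a histone H3 lysine 4 methyltransferase, and the allele and any Cre behind its deletion, and the ages of the mice, are not given in the sources used here. Each of the 24 arrays held the RNA of 1 mouse on 1 day, so every group has n = 3 mice, and array values are listed below in the mouse order just given.

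Metalloproteases use a zinc ion to cut proteins outside the cell or at its surface. Secreted and membrane-bound Mmps cut collagens, laminins and other matrix proteins, catalytic Adams shed the outer parts of membrane proteins such as Notch receptors and EGF receptor ligands, and several Adamts enzymes cut the chondroitin sulphate proteoglycans that fill the matrix of the brain. Timps bind the active sites and block them, and Timp3 is held in the matrix and has the widest range, which includes Adams and Adamts enzymes. In the subventricular zone these proteins act on growth factor release, on Notch signalling and on the migration of neuroblasts.

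Upstream sequence was examined because 10 neighbouring Mmp genes on chromosome 9 form 1 run in the gene order, and their behaviour could be set beside what they share. Of the 82 members 51 matched an entry of the RefSeq promoter table (build GRCm38.p6), of which the 250 bases before each annotated start were searched for TGANTCA, the letters of the AP-1 motif, which read the same on both strands apart from the middle base. The letters stood before 8 of the 10 genes of the run, and before 3 of the 41 other members with an entry (Adam19, Adam25 and Adam29). A gene was counted if any of its annotated starts has them, and for Adam19 this holds for 1 of 3 starts, and for Mmp12 and Mmp7 for 1 of 2. The share over all 27025 genes with an entry was 7.82%. The sequences below give 12 bases on either side, 5′ to 3′ on the strand of the gene, with the motif letters in capitals. They are shown so that the genes of the run can be compared with each other and with Adam19, the member with these letters whose measured fall in wild-type cultures was largest. This ranking depends on the level. Adam25, Adam29, Mmp1a, Mmp1b and Mmp12 were near the floor, as defined below, in dividing wild-type cultures and could hardly fall. The fall of Mmp3 is a lower bound.
Mmp13, chr9:7272467-7272497, plus strand: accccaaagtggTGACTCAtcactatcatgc
Mmp12, chr9:7347318-7347348, plus strand: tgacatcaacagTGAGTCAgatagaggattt
Mmp1b, chr9:7388101-7388131, minus strand: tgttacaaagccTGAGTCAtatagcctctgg
Mmp3, chr9:7445764-7445794, plus strand: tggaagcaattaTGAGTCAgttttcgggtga
Mmp1a, chr9:7464056-7464086, plus strand: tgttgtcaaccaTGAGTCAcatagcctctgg
Mmp10, chr9:7502267-7502297, plus strand: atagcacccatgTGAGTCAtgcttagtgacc
Mmp20, chr9:7628124-7628154, plus strand: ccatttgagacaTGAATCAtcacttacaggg
Mmp7, chr9:7692015-7692045, plus strand: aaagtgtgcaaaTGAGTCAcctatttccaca
Adam19, chr11:46055841-46055871, plus strand: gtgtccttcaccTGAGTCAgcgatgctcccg

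The 250 bases before the start of Mmp3, the 1 gene of the run that passed a test in any comparison, and before that of Timp1, the member with the largest difference between the genotypes on day 0, are given in full. The motif letters occur once before Mmp3 and not in this window of Timp1. A match describes letters and is neither a binding site nor a cause.
Mmp3, chr9:7445572-7445821, plus strand: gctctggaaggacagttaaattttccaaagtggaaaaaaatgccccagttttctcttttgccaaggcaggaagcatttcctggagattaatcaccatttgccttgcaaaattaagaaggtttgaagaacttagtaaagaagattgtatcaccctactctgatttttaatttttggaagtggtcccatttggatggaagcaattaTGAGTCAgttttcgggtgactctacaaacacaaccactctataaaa
Timp1, chrX:20869916-20870165, plus strand: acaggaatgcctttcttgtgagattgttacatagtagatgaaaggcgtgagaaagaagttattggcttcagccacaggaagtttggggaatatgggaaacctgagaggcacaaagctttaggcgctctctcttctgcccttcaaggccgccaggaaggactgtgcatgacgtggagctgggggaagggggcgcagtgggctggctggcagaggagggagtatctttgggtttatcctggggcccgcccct

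Values are linear array intensities, and differences are on the log2 scale with ± for their SE. Within a group the arrays correlated with r from 0.984 to 0.996 across genes. The labelled cell type was set beside 10 neural stem cell markers, none of which was near the floor in any group, and Nes, Sox2, Vim and Fabp7 were among them. Gfap is on this list and on that of astrocytes, and day 4 of differentiation passed as well. These levels therefore cannot tell stem cells from astrocytes and do not check the label. A level counted as near the floor where the mean of its group lay below the mean lower quartile of that group's arrays, which was 24.5 to 27.2, and a difference from such a level is given as at least its value. Kmt2a was at a mean intensity of 388, 483, 592 and 299 on the 4 days in wild-type cultures and at 540, 597, 631 and 383 in Mll1-deleted ones, and since the position of its probes within the gene is not known here, these values do not check the deletion. In bulk cultures, fewer cells of a type and less RNA per cell cannot be told apart.

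When serum and growth factors were withdrawn, several proteases fell in wild-type cultures within 1 day and were still below their starting levels on day 4. Adam12 fell 9.54-fold, Adamts1 7.64-fold, Adamts14 6.67-fold and Adam19 3.49-fold by day 1, while the inhibitors Timp2 and Timp3 rose and Timp1 fell. Mll1-deleted cultures differed before the withdrawal: Timp1, Timp2 and Timp3 were higher, and Adam19, Mmp15, Adamts14 and Adamts6 were lower than in dividing wild-type cultures. Of the 82 members, 43 passed the test in at least 1 of 13 comparisons and 39 in none, which is 52.4% of the members beside 59% of all genes. Of the 56 genes that were near the floor in no group 39 passed at least once, and of the 17 that were near it in all 8 groups, 13 Adams mostly known from the germ line and 4 Mmps, 1 did (Adam24).

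**Figure D1:**
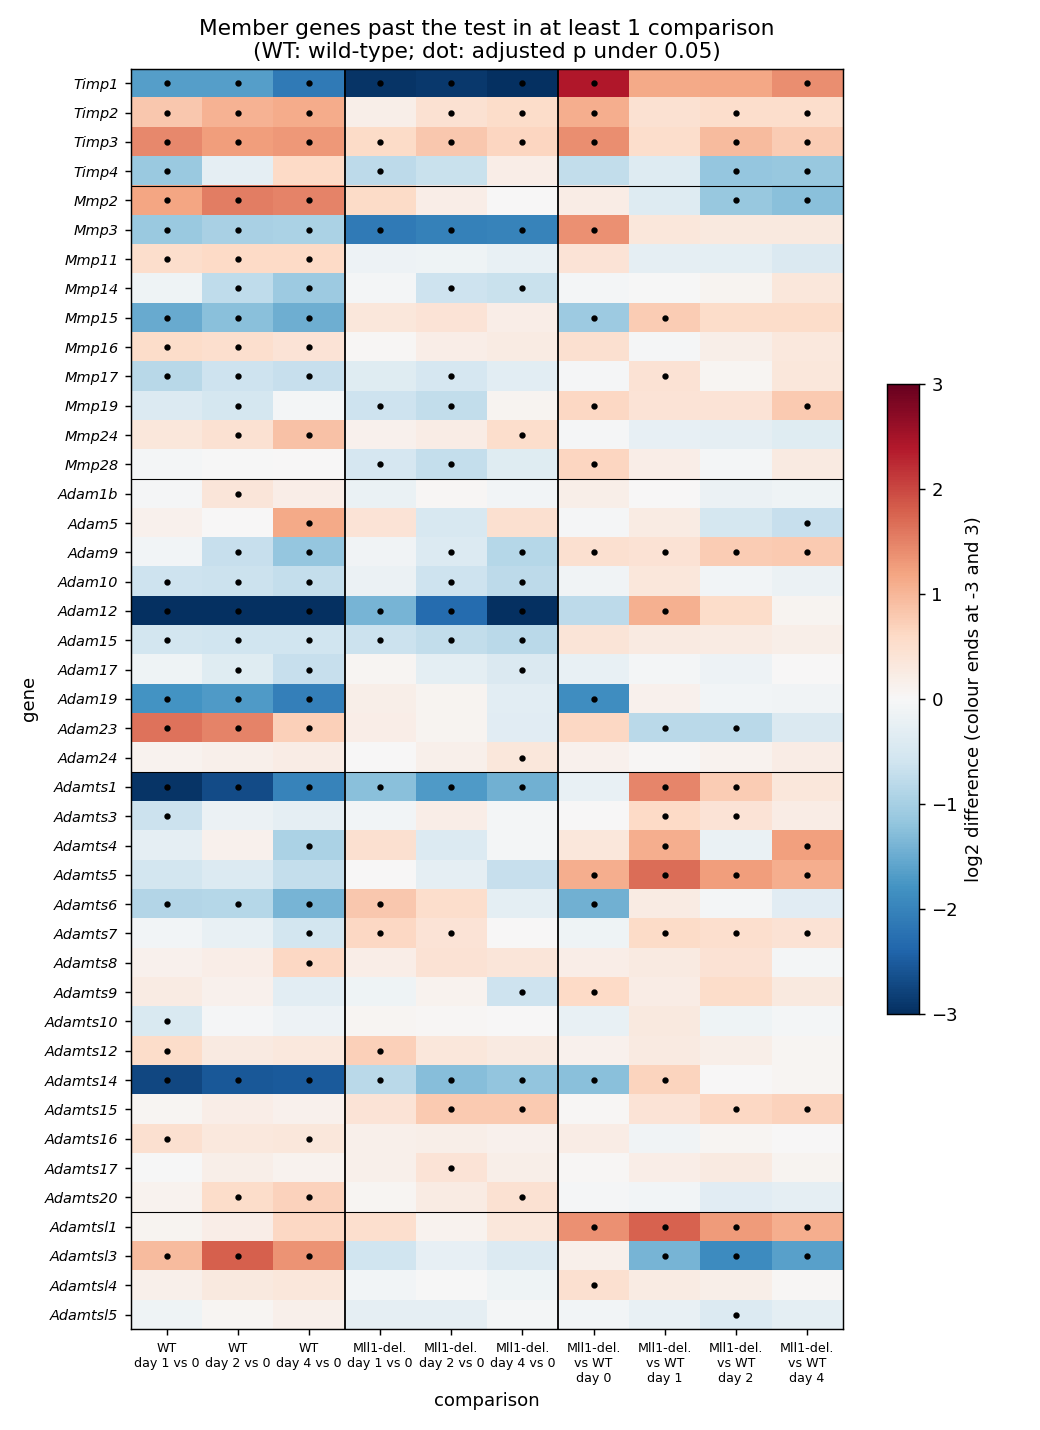
Log2 differences of the 43 member genes that passed the test in at least 1 comparison, in rows by family, for 10 comparisons in columns (each later day against day 0 within a genotype, and Mll1-deleted against wild-type, WT, on each day). Red is higher, blue is lower, a dot marks an adjusted p under 0.05, and the colours end at -3 and 3. Adam12, Adamts1 and Adamts14 are blue with dots through both time courses, and Timp1 is red on day 0 between the genotypes.

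In wild-type cultures 9 of 82 members rose and 14 fell by day 1, which is 11% and 17.1% of the members beside 11.7% and 13.8% of all genes tested. By day 2 the numbers were 10 and 15 (12.2% and 18.3%, against 15.6% and 18.0% of all genes) and by day 4 they were 12 and 16 (14.6% and 19.5%, against 17.1% and 20.4%). Without mouse 818 the day 1 count went from 23 to 15. In Mll1-deleted cultures 4 members rose and 9 fell by day 1 (4.88% and 11%, against 5.87% and 6.52% of all genes), 5 and 12 by day 2 (6.1% and 14.6%, against 9.41% and 13.9%), and 6 and 11 by day 4 (7.32% and 13.4%, against 13.9% and 15.7%). The day 1 count of 13 went to 7 without mouse 489, and to 6 from the 6 arrays of these days alone. A call means that limma gave the log2 difference a p below 0.05 once adjusted over all 21072 genes by Benjamini-Hochberg. For these time courses the fit had no term for the mouse. The median member moved by 0.00, 0.09 and 0.09 on the 3 later days in wild-type cultures and by -0.01, 0.03 and 0.02 in Mll1-deleted ones, beside medians of 0.02, 0.06 and 0.05 and of -0.02, 0.02 and 0.06 over all genes.

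Decreases were in part shared by the genotypes among the members and among all genes. By day 1 7 members fell in both (50% of the wild-type and 77.8% of the Mll1-deleted decreases, against 32.3% and 68.4% over all genes). By day 2 11 members fell in both, which is 73.3% of those that fell in wild-type and 91.7% of those that fell in Mll1-deleted cultures: Adam9, Adam10, Adam12, Adam15, Adamts1, Adamts14, Mmp3, Mmp14, Mmp17, Mmp19 and Timp1. Over all genes the shares were 55.3% and 71.6%. By day 4 there were 10 (62.5% and 90.9%, against 57.8% and 75.1% of all genes). Shared increases numbered 2 on day 1 (22.2% of the wild-type and 50% of the Mll1-deleted increases, against 36.6% and 72.7% over all genes). On day 2 there were again 2 (20% and 40%, against 40.7% and 67.6% over all genes). On day 4 there were 4, namely Timp2, Timp3, Mmp24 and Adamts20 (33.3% and 66.7%, against 51.7% and 63.8% over all genes). The gaps between members and all genes in these shares were not tested. Adamts6 fell in wild-type and rose in Mll1-deleted cultures on day 1, and it was the 1 member with opposite calls.

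Among the inhibitors, Timp1, a secreted protein induced by serum in many cells, stood apart on day 0. In dividing wild-type cultures it was at 332, 302 and 285, and in dividing Mll1-deleted cultures at 2010, 3150 and 660. All 3 Mll1-deleted values lay above the wild-type ones, mouse 858 closest to them. The genotypes differed 5.27-fold (log2 2.40 ± 0.37, adjusted p = 1.2e-04 by limma with the mouse as a random block), and the call held without any 1 mouse. On day 1 Timp1 was at 85.8, 105 and 100 in wild-type and at 266, 322 and 111 in Mll1-deleted cultures, and on day 4 at 80.1, 78.4 and 56 against 221, 226 and 127. The level thus dropped within 1 day in each mouse. The Mll1-deleted values lay above the wild-type ones on days 1 and 4, and on day 2 mouse 858 (123) lay just below mouse 818 (126). Timp1 fell by 1.66 ± 0.43 in wild-type cultures by day 1 (adjusted p = 0.0058, lost without mouse 818 or 862, with adjusted p up to 0.0807), by 1.65 on day 2 (lost without mouse 862 or 870, up to 0.0583) and by 2.12 on day 4. It fell by 2.93 ± 0.43 (adjusted p = 1.0e-04), 2.89 and 3.12 in Mll1-deleted ones. Between the genotypes it did not pass on day 1 (1.13 ± 0.37, adjusted p = 0.0688) or day 2 (1.15 ± 0.37, adjusted p = 0.056). On day 4 it did (1.39 ± 0.37, adjusted p = 0.0242), a call lost without any of mice 489, 814, 818, 862 and 870 (adjusted p up to 0.197) and without the random block (0.0588).

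Fibroblast and meningeal markers moved with Timp1 on day 0. The summed intensity of the 8 markers of that list was 514, 518 and 568 in dividing wild-type cultures, and 1540, 3960 and 721 in Mll1-deleted ones, with the mice in the same order as for Timp1. The collagens Col1a1, Col1a2 and Col3a1 accounted for most of it, at means of 466, 690 and 151 against 140, 127 and 86.3, whereas the defining fibroblast genes Lum and Dpt were near the floor in all 8 groups and Dcn had a mean of 39.1 against 26. Of these 8 markers 2 were higher and 0 lower in the test of genotypes on day 0, beside 5.41% and 4.71% of all genes. The pericyte and smooth muscle list summed to 4770, 9530 and 5170 against 3780, 2360 and 3140, nearly all of it Acta2, with Rgs5 near the floor in 5 groups and Anpep in 7. Microglial markers summed to 381 to 579 in dividing Mll1-deleted and 360 to 402 in dividing wild-type cultures, with Aif1 and Itgam near the floor throughout. By day 1 the mean of Timp1 in Mll1-deleted cultures went from 1610 to 212, while the fibroblast list still summed to 746 to 2810 there. On day 4 the fibroblast list in mouse 858 summed to 654, below the wild-type values of 845, 805 and 873, while Timp1 in this mouse was at 127. The part of these cells in the Timp1 result was not tested.

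**Figure D2:**
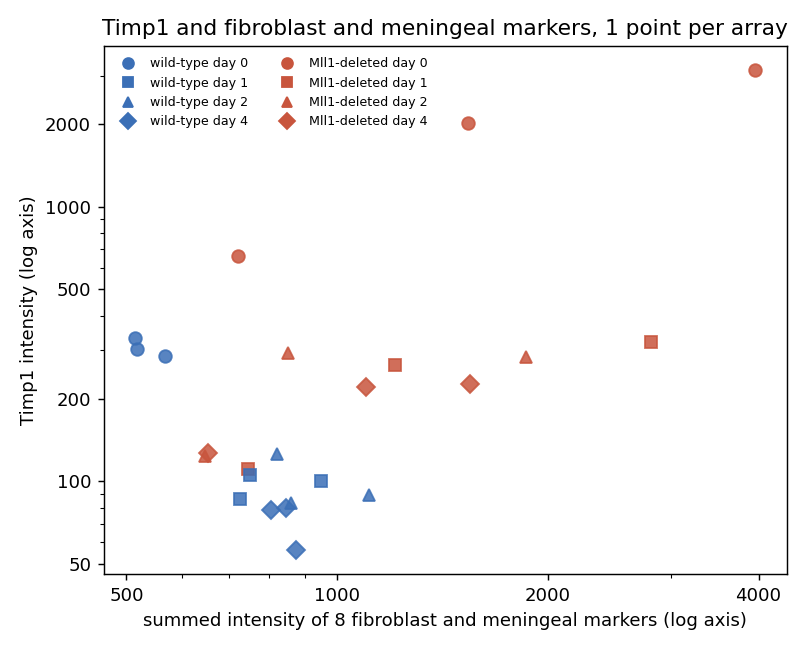
Timp1 intensity (vertical, log axis) against the summed intensity of the 8 fibroblast and meningeal markers (horizontal, log axis), 1 point per array, with colour for genotype and shape for day. The 3 Mll1-deleted day 0 arrays, at Timp1 intensities of 660 to 3150, lie above every other array.

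Timp2, which inhibits Mmps and also takes part with Mmp14 in activating pro-Mmp2, was at 1220, 1140 and 1120 in dividing wild-type cultures and at 2660, 2850 and 2020 in Mll1-deleted ones. Timp3 was at 728, 722 and 614 against 2110, 2180 and 1290. For both, the groups did not overlap, and mouse 858 was again the Mll1-deleted mouse nearest to wild-type. The differences on day 0 were 1.10 ± 0.15 for Timp2 (2.15-fold, adjusted p = 3.4e-05) and 1.40 ± 0.18 for Timp3 (2.64-fold, adjusted p = 9.5e-06), and both calls held without any 1 mouse. By day 1 wild-type Timp3 had reached 1800, 2120 and 1720 (1.45 ± 0.19, adjusted p = 4.8e-06) and wild-type Timp2 2010, 2100 and 2010 (0.82 ± 0.16, adjusted p = 4.2e-04). For Timp3 these wild-type levels after 1 day lay within the range of the dividing Mll1-deleted cultures. Timp3 kept its increase of 1.26 and 1.29 on days 2 and 4, and Timp2 was up by 1.04 and 1.11. In Mll1-deleted cultures Timp3 rose by 0.57, 0.82 and 0.64 and Timp2 by 0.46 and 0.54 on days 2 and 4. The day 1 call of Timp3 was lost without mouse 489 or 858 (adjusted p up to 0.358), its day 4 call without mouse 858 (0.119), the day 2 call of Timp2 without any 1 of the 3 mice (up to 0.135) and its day 4 call without mouse 489 or 814 (up to 0.0707).

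Between the genotypes Timp3 remained higher in Mll1-deleted cultures on day 2 (0.96 ± 0.18, adjusted p = 9.3e-04) and day 4 (0.75 ± 0.18, adjusted p = 0.0101, lost without mouse 489 or 870, up to 0.115), with 3630, 3070 and 2950 against 1510, 1860 and 1590 on day 2. Timp2 was higher on day 2 (0.52 ± 0.15, adjusted p = 0.034) and day 4 (0.53 ± 0.15, adjusted p = 0.0369), and these 2 calls were lost when any of 4 mice was left out (489, 814, 818 or 862 on day 2, up to 0.181, and 489, 814, 862 or 870 on day 4, up to 0.309). Day 1 did not pass for Timp3 (0.52 ± 0.18, adjusted p = 0.0771) or Timp2 (0.46 ± 0.15, adjusted p = 0.0711).

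Timp4, the Timp with the narrowest tissue range, went the other way. In wild-type cultures it was at 370, 429 and 375 on day 0, at 154, 209 and 179 on day 1, and at 530, 631 and 602 on day 4. It thus dipped on day 1 (-1.12 ± 0.25, adjusted p = 0.00165) and stood above its start on day 4 by 0.59 ± 0.25, which did not pass (adjusted p = 0.0702) except with the mouse as a fixed block (0.0432). Mll1-deleted cultures held 163, 114 and 173 on day 2, against 282, 337 and 366, and 331, 204 and 287 on day 4. Timp4 was lower there on day 2 (-1.15 ± 0.25, adjusted p = 0.00465, lost without mouse 870 at 0.0553) and day 4 (-1.13 ± 0.25, adjusted p = 0.00698, lost without mouse 862 or 870, up to 0.0637). Its fall in Mll1-deleted cultures on day 1 (-0.78 ± 0.25, adjusted p = 0.0439) was lost without mouse 489 or 858 (up to 0.618).

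**Figure D3:**
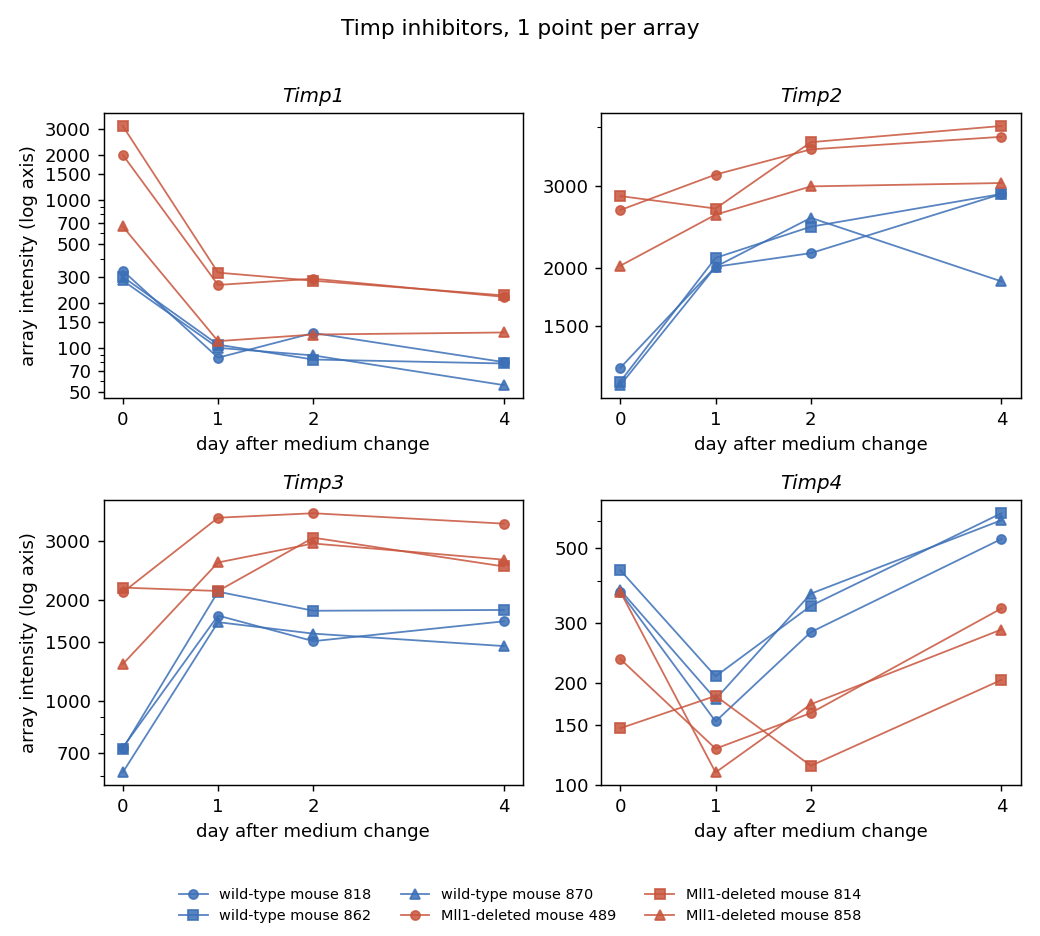
Intensities of Timp1, Timp2, Timp3 and Timp4 (vertical, log axes) by day (horizontal), 1 point per array and 1 line per mouse, blue for wild-type and red for Mll1-deleted. On day 0 all red points of Timp1 (660 to 3150) lie above the blue ones (285 to 332), and on days 2 and 4 all red points of Timp4 lie below the blue ones.

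Of 16 secreted Mmps, 2 rose and 1 fell in wild-type cultures by day 1, 2 rose and 2 fell by day 2, and 2 rose and 1 fell by day 4, while 0 rose and 3, 3 and 1 fell in Mll1-deleted ones. Of all genes 11.7%, 15.6% and 17.1% rose and 13.8%, 18.0% and 20.4% fell in wild-type cultures on these days. In Mll1-deleted ones 5.87%, 9.41% and 13.9% rose and 6.52%, 13.9% and 15.7% fell. With 16 genes no share of the group is read against these. Mmp2, the gelatinase that cuts type IV collagen of basement membranes, was at 173, 132 and 119 in dividing wild-type cultures. By day 2 it had reached 570, 339 and 349 there, and 183, 270 and 130 in Mll1-deleted cultures, which had started at 130, 314 and 105. Every wild-type day 2 value lay above every Mll1-deleted one, and mouse 818 was the highest. Mmp2 rose in wild-type cultures by 1.19 ± 0.41, 1.54 ± 0.41 and 1.48 ± 0.41 on days 1, 2 and 4 (adjusted p = 0.0365, 0.00516 and 0.00616). The day 1 call was lost without any 1 of the 3 mice (up to 0.14), and that of day 4 without mouse 818 (0.0536). It was lower in Mll1-deleted cultures by -1.13 ± 0.35 on day 2 and -1.25 ± 0.35 on day 4 (adjusted p = 0.0476 and 0.0342), calls that were lost without the random block (0.101 and 0.0774), without any of mice 489, 818, 858 and 862 and, on day 2, without 870 (up to 0.196 and 0.218). The difference in the change of Mmp2 passed with the mouse as a fixed block (-1.35 ± 0.26 on day 2, adjusted p = 0.00206, and -1.47 ± 0.26 on day 4, adjusted p = 8.8e-04) but not without it (0.22 and 0.155). With the block Mmp2 also passed in Mll1-deleted cultures on day 1 (0.58 ± 0.18, adjusted p = 0.0336, against 0.473). Mmp9, the other gelatinase, lay between 16.8 and 38.1 on all arrays and was near the floor in 3 groups.

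Mmp3, stromelysin-1, an enzyme that also activates other Mmps, was the gene of the chromosome 9 run that moved. In dividing Mll1-deleted cultures it was at 175, 122 and 46.5, against 32.2, 42.6 and 42.8. All 3 values were above the wild-type ones, mouse 858 by little. The difference was 1.36 ± 0.30 (2.56-fold, adjusted p = 0.00337) and lost its call without mouse 489 (adjusted p = 0.0561) and from the 6 arrays of day 0 alone (0.089). On the later days it was at 13.9 to 23 in wild-type and 19.6 to 33.1 in Mll1-deleted cultures, near the floor in all of these groups. It therefore fell by at least 2.13, 2.03 and 2.00 in Mll1-deleted cultures (adjusted p = 6.5e-05, 4.2e-05 and 2.4e-05) and by at least 1.11, 0.97 and 0.95 in wild-type ones. The wild-type calls were each lost without at least 2 of the 3 mice (adjusted p up to 0.175). The other 9 genes of the run, 7 of which hold the motif letters as well, were called in no comparison, although Mmp1b passed for wild-type day 4 with the mouse as a fixed block (0.32 ± 0.12, adjusted p = 0.0414, against 0.0655). Mmp1a, Mmp1b, Mmp8 and Mmp27 were near the floor in all groups, and the intensities of all 9 stayed between 6.24 and 62.4.

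Mmp11, stromelysin-3, rose in wild-type cultures from 104, 95.7 and 122 to 153, 161 and 144 on day 1 and 155, 152 and 179 on day 4 (0.52, 0.59 and 0.60 on the 3 days, SE 0.14). The call of day 1 was lost without mouse 818 or 862 (up to 0.168) and that of day 2 without 862 (0.0584). In Mll1-deleted cultures it went from 150, 174 and 107 to 111, 113 and 138 by day 4 and passed no test. The changes of the genotypes differed by -0.70 ± 0.20 on day 2 (adjusted p = 0.0475) and -0.83 ± 0.20 on day 4 (adjusted p = 0.0172), and both calls were lost without any of mice 489, 814, 818, 862 and 870 (up to 0.262). Mmp19 and Mmp28, secreted enzymes of epithelia among other tissues, were higher in dividing Mll1-deleted cultures, by 0.63 ± 0.16 and 0.64 ± 0.14 (adjusted p = 0.0105 and 0.00378). Mmp28 was at 129, 192 and 121 against 85, 99.3 and 94.5, with no overlap, and fell by 0.51 and 0.71 on days 1 and 2 in Mll1-deleted cultures. Mmp19 was higher again on day 4, at 261, 166 and 135 against 105, 113 and 94.2 (0.79 ± 0.16, adjusted p = 0.00265). The day 0 call of Mmp19 was lost without mouse 814, 818 or 870 (up to 0.0852) and that of Mmp28 without 814 (0.0732), as was its day 1 fall without 489 or 814 (up to 0.233).

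Among the 7 membrane-bound Mmps 1 rose and 2 fell in wild-type cultures on day 1, and 2 rose and 3 fell on days 2 and 4, whereas Mll1-deleted cultures showed 0 and 0, 0 and 2, and 1 and 1. Beside them stand the 11.7%, 15.6% and 17.1% of all genes that rose and the 13.8%, 18.0% and 20.4% that fell in wild-type cultures. In Mll1-deleted ones 5.87%, 9.41% and 13.9% of all genes rose and 6.52%, 13.9% and 15.7% fell. With 7 genes no share of the group is read against these. Mmp15, a transmembrane Mmp (MT2-MMP), was at 1090, 1240 and 1250 in dividing wild-type cultures and at 587, 382 and 760 in Mll1-deleted ones. On day 1 these became 355, 487 and 423 against 766, 717 and 644. The order of the genotypes was thus reversed without overlap on both days. Mmp15 fell in wild-type cultures by 1.51 ± 0.19, 1.25 ± 0.19 and 1.46 ± 0.19 on the 3 days (adjusted p = 2.7e-06, 1.5e-05 and 1.3e-06) and passed no test in Mll1-deleted ones, at 0.35, 0.42 and 0.20. The changes differed by 1.86 ± 0.26, 1.67 ± 0.26 and 1.67 ± 0.26 (adjusted p = 3.4e-04, 5.2e-04 and 5.4e-04), and these calls, like the lower level on day 0 (-1.10 ± 0.19, adjusted p = 3.7e-04), held without any 1 mouse. The higher level on day 1 (0.76 ± 0.19, adjusted p = 0.0142) was lost without mouse 489, 818 or 870 (up to 0.0972).

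Mmp14 (MT1-MMP), the main activator of pro-Mmp2 at the cell surface, was at 3080, 3080 and 2960 in dividing wild-type and 2450, 3170 and 3120 in dividing Mll1-deleted cultures. By day 4 it was at 1600, 1670 and 1070 and at 1870, 1850 and 1720. It fell in both genotypes, by 1.10 ± 0.14 (adjusted p = 1.6e-06) and 0.67 ± 0.14 (adjusted p = 8.3e-04), and passed no test between them. Mmp17, which is held to the membrane by a lipid anchor, fell by 0.83, 0.61 and 0.70 in wild-type cultures and by 0.50 on day 2 in Mll1-deleted ones, the last call lost without mouse 489 (0.0863). With the mouse as a fixed block its values on days 1 and 4 there passed too (-0.36 and -0.32, adjusted p = 0.047 and 0.0434, against 0.08 and 0.0668). Mmp24 (MT5-MMP), which is known from neural tissue, rose from 54.8, 64.7 and 75 to 111, 110 and 134 by day 4 in wild-type cultures (0.87 ± 0.14, adjusted p = 2.8e-05) and from 65.4, 61.8 and 62 to 90.2, 87.5 and 96.5 in Mll1-deleted ones (0.53 ± 0.14, adjusted p = 0.00575). Mmp16 (MT3-MMP) rose by 0.54, 0.50 and 0.41 in wild-type cultures. Its calls on days 1 and 2 were lost without mouse 862 or 870 (up to 0.25), and that of day 4 without any 1 of the 3 mice (up to 0.237) and with the mouse as a fixed block (0.0534).

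In the group of 9 broadly expressed catalytic Adams, 0 rose and 4, 6 and 6 fell in wild-type cultures on the 3 later days, and 0 rose and 2, 4 and 5 fell in Mll1-deleted ones. Of all genes 13.8%, 18.0% and 20.4% fell in wild-type cultures and 6.52%, 13.9% and 15.7% in Mll1-deleted ones on these days, and the difference from the group was not tested. Adam12 (meltrin alpha), which sheds EGF receptor ligands, was at 1080, 1360 and 1150 in dividing wild-type cultures and at 125, 128 and 122 a day later. It fell by 3.25 ± 0.28 on day 1 (9.54-fold, adjusted p = 2.9e-08) and fell by 3.94 ± 0.28 on day 4 (15.4-fold, adjusted p = 5.4e-10). In Mll1-deleted cultures it went from 749, 547 and 802 to 295, 476 and 128 on day 1 and 83.5, 83.2 and 80.3 on day 4. On day 1 mouse 858 was at the wild-type level and the other mice were not, and by day 4 all mice of both genotypes lay between 69.2 and 91.9. In Mll1-deleted cultures it fell by 1.40 ± 0.28 by day 1 and by 3.07 ± 0.28 by day 4. The difference in the day 1 change (1.86 ± 0.40, adjusted p = 0.0119) and the higher level on day 1 (1.07 ± 0.29, adjusted p = 0.0227) were both lost without any of mice 489, 814, 818, 862 and 870 (adjusted p up to 0.101 and 0.185).

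Adam19 (meltrin beta), a close relative that sheds neuregulin, was at 354, 456 and 468 in dividing wild-type cultures and at 106, 97.4 and 154 in dividing Mll1-deleted ones. After 1 day the wild-type values were 135, 116 and 114 and the Mll1-deleted values 122, 169 and 113. The genotypes were far apart on day 0 and overlapped from day 1 on. Adam19 was lower on day 0 by -1.86 ± 0.17 (3.63-fold, adjusted p = 1.7e-07), fell in wild-type cultures by 1.80 ± 0.16, 1.70 ± 0.16 and 2.06 ± 0.16 (adjusted p = 3.6e-08, 4.0e-08 and 1.7e-09) and was at 0.18, 0.08 and -0.31 in Mll1-deleted ones, which did not pass. The 95% intervals of these 3 changes were -0.15 to 0.51, -0.25 to 0.41 and -0.64 to 0.02. The changes differed by 1.98 ± 0.23, 1.78 ± 0.23 and 1.74 ± 0.23 (adjusted p = 6.4e-05, 7.0e-05 and 8.6e-05), and all of these calls held without any 1 mouse.

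Adam10 and Adam17, the main sheddases of Notch and of EGF receptor ligands, changed less. Adam10 went from 1830, 1770 and 1960 to 1220, 1200 and 1210 by day 1 in wild-type cultures (-0.61 ± 0.12, adjusted p = 5.6e-04). In Mll1-deleted cultures it was at 1640, 1800 and 1200 on day 1, where mouse 858 alone had reached the wild-type range, and at 1030, 1270 and 1050 on day 2 (-0.63 ± 0.12, adjusted p = 5.8e-04). Adam17 fell by 0.68 ± 0.14 in wild-type cultures by day 4 and by 0.43 ± 0.14 in Mll1-deleted ones, the latter call lost without mouse 489 or 858 (up to 0.161). Neither passed a test between the genotypes. Adam9, a sheddase of wide expression, was higher in Mll1-deleted cultures on every day, by 0.47, 0.44, 0.77 and 0.79 (SE 0.13). On day 4 it was at 1120, 931 and 833 against 563, 549 and 549, and the calls of days 2 and 4 (adjusted p = 3.0e-04 and 3.1e-04) held without any 1 mouse, while those of days 0 and 1 were each lost without at least 3 of the mice, day 0 without 814, 818 or 870 (up to 0.163) and day 1 without 489, 818, 862 or 870 (up to 0.185). Adam9 also fell with time, by 1.17 and 0.85 by day 4. Adam15 fell by 0.54 to 0.60 in wild-type and 0.64 to 0.81 in Mll1-deleted cultures, with the calls on wild-type days 1 and 2 lost without mouse 818 (up to 0.0793) and on Mll1-deleted day 1 without 489 or 814 (up to 0.0608).

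Adam11, Adam22 and Adam23 lack a working catalytic site and are surface proteins of neurons, Adam22 and Adam23 being receptors of the Lgi proteins at synapses. Of the 3 only Adam23 was called in any of the 13 comparisons, although Adam11 in wild-type cultures on day 4 (0.34, adjusted p = 0.0556) passed with the mouse as a fixed block (0.031). It rose in wild-type cultures from 205, 170 and 154 to 564, 522 and 555 on day 1 (1.64 ± 0.25, adjusted p = 3.0e-05), was up by 1.49 on day 2 and by 0.71 on day 4, the last lost without mouse 818 or 862 (up to 0.189). In Mll1-deleted cultures it was at 354, 223 and 241 on day 0 and 354, 214 and 387 on day 1. The wild-type day 1 values all lay above them. The changes differed by -1.43 ± 0.35 on day 1 (adjusted p = 0.0273) and -1.41 ± 0.35 on day 2 (adjusted p = 0.0193), calls lost without mouse 489, 862 or 870 and on day 1 also without 814 or 818 (up to 0.139 and 0.168). Its level was lower in Mll1-deleted cultures on day 1 (-0.82 ± 0.24, adjusted p = 0.0343) and day 2 (-0.80 ± 0.24, adjusted p = 0.0365), calls lost without any of mice 489, 814, 818, 862 and 870 (up to 0.309 and 0.168). Neuroblast markers as a sum moved the same way on day 1. Their summed intensity was 5640, 3240 and 3960 in wild-type and 1630, 1590 and 2760 in Mll1-deleted cultures, and 5 of 8 rose in the former and 2 in the latter. Of all genes 11.7% rose in wild-type and 5.87% in Mll1-deleted cultures on that day. Stmn2 went the other way, with means of 78.5 in wild-type and 293 in Mll1-deleted cultures on day 1, after 122 and 804. In wild-type cultures the sum was higher still on day 2, at 9010 to 12800, while the mean of Adam23 went from 547 to 492. The part of neuroblasts in the Adam23 result was not tested. Adam22 stayed between 188 and 298 on all arrays. Among the 19 remaining Adams, mostly of the germ line, Adam5 stood out in wild-type cultures on day 4, at 69.9, 65.9 and 53.9 against 33.3, 24.2 and 29.7 on day 0 (1.13 ± 0.18, adjusted p = 2.7e-05).

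**Figure D4:**
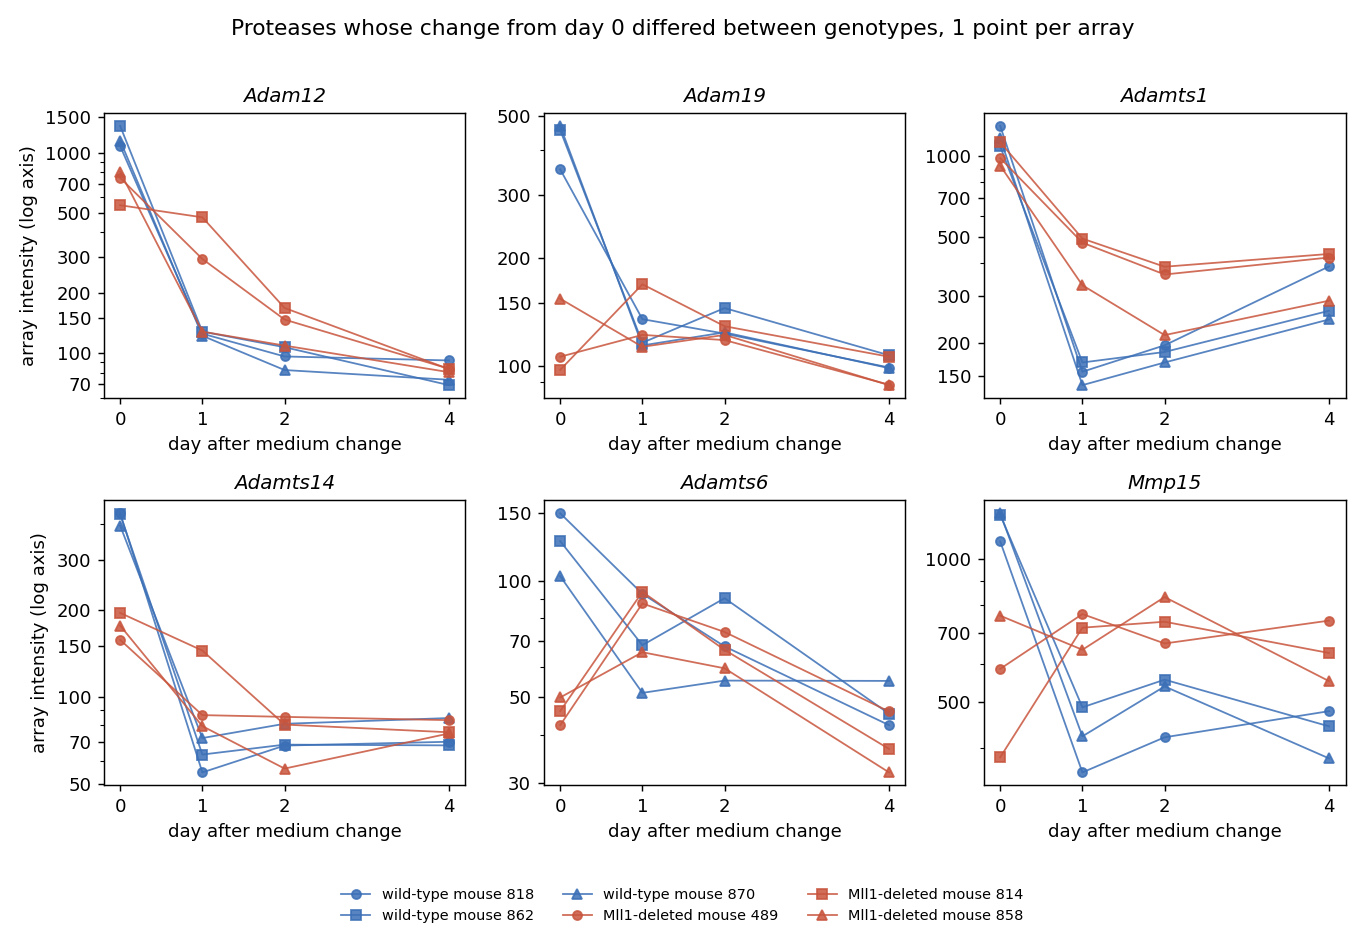
Intensities of 6 proteases whose change from day 0 differed between the genotypes on day 1 (vertical, log axes) by day (horizontal), 1 point per array and 1 line per mouse, blue for wild-type and red for Mll1-deleted. For Adam19, Adamts14, Adamts6 and Mmp15 the genotypes are separate on day 0, and Adam19 is at 113 to 169 on all arrays of day 1.

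The 7 Adamts enzymes known to cut hyalectans, the large proteoglycans of brain matrix such as versican and brevican, did not move as 1 group. Adamts1 was at 1300, 1090 and 1170 in dividing wild-type cultures and dropped to 156, 169 and 139 on day 1 (-2.93 ± 0.21, adjusted p = 1.7e-09). Mll1-deleted cultures went from 985, 1130 and 923 to 475, 492 and 329 (-1.25 ± 0.21, adjusted p = 3.1e-04). The starting levels overlapped and those of day 1 did not, which gave a difference in change of 1.69 ± 0.29 (adjusted p = 0.00205) and a higher level on day 1 of 1.46 ± 0.19 (adjusted p = 1.8e-05), both of which held without any 1 mouse. On day 2 the level was still higher by 0.76 ± 0.19 (adjusted p = 0.0105, lost without mouse 489, 814 or 870, up to 0.112). The differences in change on days 2 and 4 passed with the mouse as a fixed block (0.99 ± 0.18, adjusted p = 0.00141, and 0.58 ± 0.18, adjusted p = 0.0459) and not without it (0.0534 and 0.296).

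Adamts5, the aggrecanase that was higher in Mll1-deleted cultures on all 4 days, was at 264, 162 and 121 on day 0 against 94.5, 75.6 and 73.9. On day 1 it was at 240, 213 and 105 against 52.3, 53.8 and 58.6. The groups did not overlap on these days, and mouse 858 was the lowest of its group. The differences were 1.10, 1.67, 1.25 and 1.10 with an SE of 0.30 (adjusted p = 0.0185, 7.8e-04, 0.00947 and 0.0271). That of day 1 held without any 1 mouse, and the others were lost without 3 to 5 of the 6, which were 489, 818, 862 and 870 on day 0 (up to 0.177), 814, 862 and 870 on day 2 (up to 0.0848), and all but 858 on day 4 (up to 0.179). On day 4 mouse 858 was at 55.9, level with the highest wild-type mouse, and without the random block that call was lost. Within the genotypes Adamts5 passed on day 4 with the mouse as a fixed block alone (-0.71 ± 0.18 in wild-type and -0.70 ± 0.18 in Mll1-deleted cultures, adjusted p = 0.00335 and 0.00465, against 0.111 and 0.129), as it did in wild-type cultures on day 1 (-0.56 ± 0.18, adjusted p = 0.0231, against 0.268). Adamts4 was higher on day 1 (249, 309 and 253 against 116, 122 and 144, 1.08 ± 0.23, adjusted p = 0.00442) and day 4 (159, 154 and 269 against 74.1, 91.2 and 75.6, 1.23 ± 0.23, adjusted p = 0.00177), and not on day 2, at -0.19 ± 0.23. Both calls held without any 1 mouse. Adamts15 rose in Mll1-deleted cultures on days 2 and 4, by 0.78 ± 0.17 on each, and was at 62.1, 73.3 and 93.8 on day 4 against 37.6, 53.3 and 51.8 (0.68 ± 0.16 between the genotypes, adjusted p = 0.0101, lost without mouse 818 at 0.0875). Adamts9 was higher on day 0 by 0.60 ± 0.18 (adjusted p = 0.0377), a call lost without mouse 489, 814, 818 or 870 (up to 0.301) and without the random block, and its other 5 probe sets were at 0.45 to 0.76.

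Among the procollagen N-proteinases, which trim the ends of fibrillar procollagens, Adamts14 fell furthest. It was at 435, 431 and 394 in dividing wild-type cultures and at 158, 196 and 177 in Mll1-deleted ones. By day 1 these were 54.7, 63.1 and 72 against 86.5, 145 and 79.2, and by day 4 they overlapped at 67.9 to 84.5 and 74.7 to 83.1. Adamts14 was lower on day 0 by -1.25 ± 0.18 (2.38-fold, adjusted p = 4.5e-05), fell by 2.74 ± 0.18, 2.54 ± 0.18 and 2.51 ± 0.18 in wild-type cultures (adjusted p = 1.1e-09, 1.1e-09 and 5.8e-10) and by 0.82, 1.27 and 1.18 in Mll1-deleted ones. The changes differed by 1.92 ± 0.26, 1.27 ± 0.26 and 1.33 ± 0.26 (adjusted p = 2.3e-04, 0.00429 and 0.00296), and 1 of these calls, that of day 2, was lost without mouse 489 (0.066).

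Adamts3, which also cuts reelin and activates VEGF-C, is covered by 16 probe sets, more than any other member. All 16 were lower on day 1 than on day 0 in wild-type cultures, by -0.33 to -0.86, and 12 of them passed the test. In Mll1-deleted cultures they were at -0.28 to -0.01. The probe set that stands for the gene went from 198, 207 and 180 to 119, 135 and 118 in wild-type (-0.65 ± 0.11, adjusted p = 1.4e-04) and from 215, 183 and 197 to 190, 198 and 174 in Mll1-deleted cultures. On day 1 the genotypes did not overlap (0.60 ± 0.12, adjusted p = 0.00155), and that call held without any 1 mouse. The difference in change (0.57 ± 0.16) missed the threshold (adjusted p = 0.0599) and passed with the mouse as a fixed block (0.0373). The probe sets share the same arrays and are not replicates.

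**Figure D5:**
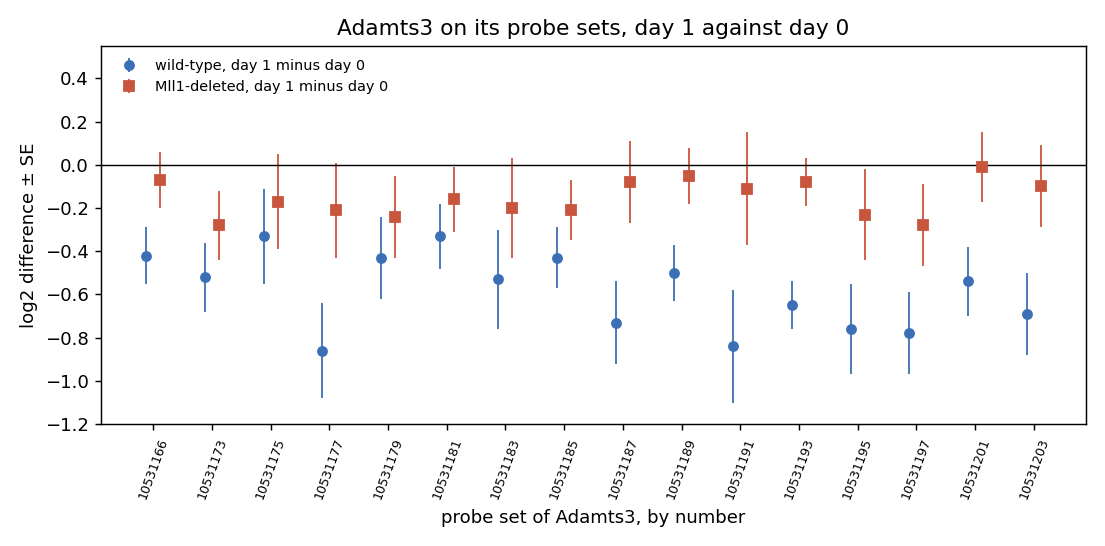
Log2 difference of day 1 against day 0 (vertical, with SE) on the 16 probe sets of Adamts3 (horizontal, by number), blue circles for wild-type and red squares for Mll1-deleted cultures. Wild-type values lie between -0.86 and -0.33, and Mll1-deleted values between -0.28 and -0.01.

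Of the 9 other Adamts genes, Adamts6, known for a role in microfibril assembly, changed in opposite directions. It was at 150, 127 and 103 in dividing wild-type and 42.3, 46 and 49.9 in dividing Mll1-deleted cultures. On day 1 it was at 92.7, 68.2 and 51.3 against 87.5, 93.8 and 65.4, and the groups overlapped. Adamts6 was lower on day 0 by -1.45 ± 0.21 (adjusted p = 4.6e-05, held without any 1 mouse), fell by 0.87, 0.85 and 1.40 in wild-type cultures and rose by 0.82 ± 0.20 on day 1 in Mll1-deleted ones (adjusted p = 0.00892, lost without mouse 489 or 814, up to 0.138). The changes differed by 1.69, 1.37 and 1.12 with an SE of 0.29 (adjusted p = 0.00186, 0.00598 and 0.0233), and the call on day 1 held without any 1 mouse, that of day 2 was lost without 489 (0.0687) and that of day 4 without 489, 814, 818 or 862 (up to 0.195). Adamts7, which cuts cartilage oligomeric matrix protein, rose in Mll1-deleted cultures from 160, 196 and 179 to 257, 275 and 289 on day 1 (0.62 ± 0.12, adjusted p = 8.9e-04), where wild-type cultures held 188, 179 and 182. It was higher on days 1, 2 and 4 by 0.58, 0.51 and 0.44 (SE 0.11), with the day 2 call lost without mouse 814 (0.0738) and that of day 4 without 489, 814, 818 or 862 (up to 0.194).

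The Adamtsl proteins share the ancillary domains of the Adamts enzymes but have no protease domain, and they bind matrix and microfibrils. Adamtsl1 (punctin-1) was at 195, 297 and 246 in dividing Mll1-deleted cultures against 101, 87.7 and 92.5. It was higher on all 4 days without overlap, by 1.37, 1.78, 1.27 and 1.09 with an SE of 0.24 (adjusted p = 3.9e-04, 3.3e-05, 0.00113 and 0.00574), and of these calls that of day 4 was lost without mouse 489 or 870 (up to 0.0836). Its other probe set gave 1.65 ± 0.20 on day 0. Adamtsl3 (punctin-2) differed between the genotypes in the opposite direction on days 1, 2 and 4. In wild-type cultures it rose from 85.5, 80.5 and 64.9 to 263, 322 and 219 on day 2 (1.79 ± 0.35, adjusted p = 3.1e-04), while Mll1-deleted cultures went from 97.4, 85.1 and 74.1 to 92.7, 98.7 and 40. It was lower in Mll1-deleted cultures on days 1, 2 and 4 by -1.40, -1.89 and -1.62 (SE 0.31, adjusted p = 0.00487, 2.8e-04 and 0.00169), and the day 1 call alone was lost, without mouse 818 (0.058). The changes differed by -2.04 ± 0.49 on day 2 and -1.77 ± 0.49 on day 4 (adjusted p = 0.0163 and 0.0346), calls lost without mouse 818, 862 or 870 and on day 4 also 814 (up to 0.0949 and 0.151). With the mouse as a fixed block the change differed on day 1 as well (-1.56 ± 0.26, adjusted p = 0.00144, against 0.11), and the Mll1-deleted value on day 1 passed (-0.60 ± 0.19, adjusted p = 0.0301, against 0.329).

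Between the genotypes 11 members were higher and 4 lower on day 0, which is 13.4% and 4.88% of the members beside 5.41% and 4.71% of all genes. A day later 11 were higher and 2 lower (13.4% and 2.44%, against 3.61% and 3.84%), at 2 days 9 and 5 (11% and 6.1%, against 4.01% and 4.73%) and at 4 days 10 and 4 (12.2% and 4.88%, against 3.73% and 2.73%). With the arrays shifted to the same median the split at 2 days was 13 and 4, and the share of higher calls among all genes went from 45.9% to 55.1%. The gap between the members' shares and those of all genes was not tested. Leaving out 1 mouse gave counts from 10 to 21 for day 0 (15 with all mice), and then from 6 to 18 (13), from 6 to 17 (14) and from 6 to 17 (14) for the later days in order. The lowest counts came without mouse 814, 818 or 870 at first, then without 818, 814 and 489, and the highest on each day without 858. The calls that held without any 1 mouse numbered 8 in dividing cultures (Adam19, Adamts6, Adamts14, Adamtsl1, Mmp15, Timp1, Timp2 and Timp3), and 6, 4 and 4 afterwards.

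The change from day 0 differed between the genotypes for 8 members on day 1, 7 in the positive direction, Mll1-deleted minus wild-type, and 1 in the negative (8.54% and 1.22%, against 1.28% and 1.15% of all genes). On day 2 there were 5 and 4 (6.1% and 4.88%, against 2.18% and 2.62%) and on day 4 5 and 2 (6.1% and 2.44%, against 3.27% and 2.56%). With the arrays shifted to the same median the day 2 split of the members was 7 and 2, and the share of positive calls among all genes went from 45.5% to 61%. With the mouse as a fixed block the totals rose from 8, 9 and 7 to 13, 14 and 13, and the members added included Timp1 on all 3 days (-1.27 ± 0.27, -1.25 ± 0.27 and -1.01 ± 0.27, adjusted p = 0.00835, 0.00575 and 0.021), which without the block were at adjusted p = 0.37, 0.304 and 0.41. Timp3 was added on day 1 (-0.88 ± 0.20, adjusted p = 0.0111) and day 4 (-0.65 ± 0.20, adjusted p = 0.04). The others added were Timp2, Adamts3 and Adamtsl3 on day 1, Adam12, Adamts1, Adamts15 and Mmp2 on day 2, and Adam23, Adamts1, Adamts15 and Mmp2 on day 4. Without 1 mouse the counts went from 5 to 16 on day 1, from 3 to 13 on day 2 and from 3 to 13 on day 4. The lowest came without 489, 818, 862 or 870, without 489, and without 818 or 862 in that order, and the highest on each day without mouse 858. These comparisons share the day 0 arrays with those of the genotypes on day 0 and with the time courses, so a member that differs on day 0 enters both.

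Other genes that set metalloprotease activity were counted by list. In wild-type cultures 11.7%, 15.6% and 17.1% of all genes rose and 13.8%, 18.0% and 20.4% fell on days 1, 2 and 4. In Mll1-deleted ones 5.87%, 9.41% and 13.9% rose and 6.52%, 13.9% and 15.7% fell. Between the genotypes 5.41% of all genes were higher and 4.71% lower on day 0. The gaps between the lists and all genes were not tested. Of 24 other inhibitors and activators, 6, 6 and 7 rose and 3, 4 and 4 fell in wild-type cultures on days 1, 2 and 4, and 4, 2 and 3 rose and 5, 6 and 7 fell in Mll1-deleted ones. Tspan15, a tetraspanin that carries Adam10 to the cell surface, rose by 2.55 ± 0.15 in wild-type and 2.34 ± 0.15 in Mll1-deleted cultures by day 4 (adjusted p = 3.5e-11 and 3.3e-10). Cd44, a hyaluronan receptor that docks Mmps, fell by 0.82 and 1.07 by day 4. Between the genotypes 7 of the 24 were higher and 1 lower on day 0, including the proprotein convertase Pcsk6 (1.44 ± 0.29, adjusted p = 0.00167) and the matrix protein Sparc (0.97 ± 0.19, adjusted p = 0.00103).

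Substrates of the enzymes were counted in the same way, beside the same shares of all genes, and the gaps were not tested. Of 18 hyalectans and matrix proteins, 5, 3 and 1 rose and 3, 7 and 6 fell in wild-type cultures, and 2, 3 and 2 rose and 1, 8 and 8 fell in Mll1-deleted ones. Tenascin-C, encoded by Tnc, fell by 3.61 ± 0.45 by day 4 in wild-type cultures (adjusted p = 9.5e-07), and the hyalectan Ncan by 2.12 ± 0.18 (adjusted p = 6.8e-09). Between the genotypes 7 were higher and 2 lower on day 0, followed by 6 and 1, 5 and 1, and 4 and 0 on the later days. Of all genes 5.41% were higher and 4.71% lower on day 0. On the later days 3.61%, 4.01% and 3.73% were higher and 3.84%, 4.73% and 2.73% lower. Versican, encoded by Vcan and a substrate of Adamts1, Adamts4 and Adamts5, had a mean of 1820 against 388 on day 0 (2.23 ± 0.25, adjusted p = 3.2e-06) and 2550 against 354 on day 1 (2.85 ± 0.25, adjusted p = 2.2e-07). Of 21 measured proteins shed from the surface, 6, 4 and 5 rose and 3, 4 and 3 fell in wild-type cultures, and 6, 5 and 5 rose and 6, 7 and 7 fell in Mll1-deleted ones. The EGF receptor family member Erbb4, an Adam17 substrate, rose by 4.49 ± 0.24 and 3.61 ± 0.24 by day 4 (adjusted p = 1.4e-11 and 7.0e-10), and the Notch ligand Jag1 fell by 2.98 ± 0.31 and 2.50 ± 0.31. Of this list 9 were higher and 2 lower in Mll1-deleted cultures on day 0, and 7, 6 and 5 were higher and 0 lower on the later days, with Dll1, another Notch ligand, at 1.21 ± 0.19 on day 2 (adjusted p = 2.4e-04). The mean of Dll1 was lower in Mll1-deleted cultures on day 0, at 67.4 against 115, and 343 against 358 on day 1.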

How the data were processed

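Each of 24 cultures had its RNA hybridised to 1 Affymetrix array. The deposited table holds 28350 probe sets with linear intensities from 3.48 to 30298. Per the submitters' processing notes the tools were Affymetrix Power Tools and RMA and the build was mm9, with no versions. RMA ends in log2, so a return to the linear scale by the authors is inferred from the deposited values, and log2 was taken again here. Median intensity per array was 75.6 to 87.1, and the number of arrays limits the precision. Neither a background measure nor scan dates were used here. Of the probe sets, 2980 with several symbols and 3138 without one were left out, older symbols were updated on 2127, and 25 symbols read as dates. A cross-hybridisation code, not explained in the files, was 1 for all 107 member probe sets. For the 576 genes with several probe sets, 4 of them members, the brightest on average over all arrays represented it. Without stated methods, counting of near-identical copies (Mmp1a and Mmp1b, the germ-line Adams) is uncertain.

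The 8 group means of all 24 arrays were modelled in limma 3.58.1 (R 4.3.3), with moderated 2-sided tests and Benjamini-Hochberg adjustment over 21072 genes. Genotypes were compared on each day with the mouse as a random block (consensus correlation 0.165). The time courses and the differences in change were tested with no term for the mouse, although each mouse gave all 4 days. Their counts, and values that did not pass, therefore leave this pairing out. The fixed block, given as an alternative, uses it. For Timp1 the SE of the difference in change on day 1 was 0.61 without that block and 0.27 with it. The IDs in the labels tie each mouse's 4 arrays together. Deviations from the group means correlated between arrays of 1 mouse with a median r of 0.216 for wild-type mice (16 of 18 pairs above 0.1) and 0.31 for Mll1-deleted mice (18 of 18), and between arrays of different mice with -0.123 and -0.143. The members, the lists of families, pathways and cell type markers, and the tests were chosen with earlier results of these data known. Genes were named by a rule: 20 core members (the Timps, the gelatinases, 5 membrane-bound Mmps, 5 Adams and 4 Adamts genes), the 10 called members with the smallest p in each comparison, and up to 3 called genes per pathway list. Figures were drawn with matplotlib 3.10.9.

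Alternatives were the mouse as a fixed block or none, each mouse left out, arrays shifted to the same median, only the arrays compared, dim genes left out, the mean of probe sets, only code 1, log2 of the intensity plus 16, and an intensity trend with a robust prior. The steps were tested on simulated data, 50 altered genes at each fold among 21072, and recovered 56% of 1.5-fold and 94% of 2-fold changes for wild-type day 1 against day 0, 54% and 86% between the genotypes on day 0, and 20% and 76% of differences in change on day 2. In the data many more genes were called, as 2455 up and 2908 down for wild-type day 1. The adjusted threshold depends on that number, so these recoveries do not give the power in the data.

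Neuroblast markers rose in 5, 8 and 8 of 8 cases in wild-type and 2, 5 and 7 in Mll1-deleted cultures on days 1, 2 and 4, astrocyte markers in 6, 5 and 4 and in 6, 6 and 7 of 8, oligodendrocyte lineage markers in 2, 2 and 3 and in 2, 4 and 7 of 9, ependymal markers in 1, 2 and 4 and in 0, 1 and 3 of 4, neural stem cell markers in 5, 4 and 4 and in 1, 5 and 3 of 10, and endothelial markers in 0 of 6. Of all genes 11.7%, 15.6% and 17.1% rose in wild-type and 5.87%, 9.41% and 13.9% in Mll1-deleted cultures. Only increases are counted here, and the lists did not move as 1. In wild-type cultures the means of some markers were lower on day 4 than on day 0. These included Aldh1l1 (5340 to 1820), Nes (1980 to 872), Fabp7 (10700 to 4050) and Olig1 (3870 to 1080).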

Additional observations from a re-analysis of the deposited data

Results flagged for a closer look

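The change from day 0 differed between Mll1-deleted and wild-type cultures, by the test of that difference in limma, in 24 cases, given here as Mll1-deleted minus wild-type change with its SE. For Adam19 it was 1.98 ± 0.23, 1.78 ± 0.23 and 1.74 ± 0.23 on days 1, 2 and 4, and for Mmp15 it was 1.86 ± 0.26, 1.67 ± 0.26 and 1.67 ± 0.26. For Adamts14 it was 1.92 ± 0.26, 1.27 ± 0.26 and 1.33 ± 0.26. For Adamts6 it was 1.69 ± 0.29, 1.37 ± 0.29 and 1.12 ± 0.29. Adamts7 differed by 0.71 ± 0.16, 0.64 ± 0.16 and 0.57 ± 0.16. On day 1 alone Adamts1 differed by 1.69 ± 0.29 and Adam12 by 1.86 ± 0.40.

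Negative differences were seen for Adam23 on day 1 (-1.43 ± 0.35) and day 2 (-1.41 ± 0.35), for Adamtsl3 on day 2 (-2.04 ± 0.49) and day 4 (-1.77 ± 0.49), for Mmp11 on day 2 (-0.70 ± 0.20) and day 4 (-0.83 ± 0.20), and for Mmp28 on day 2 (-0.69 ± 0.20). Of the 24, those of Adam19 and Mmp15 on all 3 days, of Adamts14 on days 1 and 4, and of Adamts1 and Adamts6 on day 1 held without any 1 mouse.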

How the results depend on the processing

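Of 203 member values past the test, 108 kept their call under every alternative run on them, and of 2472 alternative values 2145 kept the call, 327 lost it and 0 reversed. Without 1 mouse the number of members called ranged from 15 to 17 for wild-type day 1 (23 with all mice) and from 7 to 13 for Mll1-deleted day 1 (13). It ranged from 5 to 16, from 3 to 13 and from 3 to 13 for the differences in change on days 1, 2 and 4 (8, 9 and 7), and from 6 to 18, from 6 to 17 and from 6 to 17 between the genotypes on days 1, 2 and 4 (13, 14 and 14). Where a mouse was left out of a group, its comparison rested on 2 arrays of that group, and fewer arrays lower the power. With only the arrays of the groups compared, 6 members were called for Mll1-deleted day 1, and 8 and 7 between the genotypes on days 1 and 4, for which the cause was not tested.

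With the mouse as a replicate block the differences in change were called for 13, 14 and 13 members. The block also ended the call of Mmp16 for wild-type day 4 and left the other counts of the time courses within 1.5 times, and without the random block the counts between the genotypes were 14, 13, 13 and 11. Shifting the arrays to the same median moved the median of all genes by 0.10 for wild-type days 2 and 4. It moved the share of higher calls among all genes from 46.5% to 32.5% and from 45.6% to 33.1% there, from 46.9% to 33.5% for Mll1-deleted day 4 and from 45.5% to 61% for the difference in change on day 2, where the members split 8 up and 17 down, 9 and 18, 5 and 13, and 7 and 2. Levels near the floor, as of Mmp3 after day 0, limit the measured size of a decrease.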

Other observations

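Probe sets that hold a member symbol beside another gene's symbol were left out of the comparisons, and there were 3. The probe set of Adam1a and Mapkapk5 lay between 33.4 and 78.6 on all arrays. That of Adam26b and Adam34 lay between 7.52 and 10.6, near the floor. That of Gm4787 and Adam4 was at 26.7 to 45.6 in Mll1-deleted cultures on day 1 and at 23.3 to 26.7 in wild-type ones, and these ranges touch.

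Some cell type markers stood apart between the genotypes on day 4, when Timp4, Mmp2 and Adamtsl3 were lower in Mll1-deleted cultures, and some before. These 3 members were lower on day 2 as well, and Adamtsl3 also on day 1. On day 4 the summed intensity of the 9 oligodendrocyte lineage markers was 8530, 5760 and 10600 in mice 489, 814 and 858 and 2350, 2790 and 2390 in the wild-type mice. On day 1 this list was at 5300 to 6060 against 2500 to 2970, and on day 2 at 4350 to 7040 against 2390 to 3210. The mean of Acta2 was 2380 against 4110 on day 4. On days 0, 1 and 2 it was higher in Mll1-deleted cultures, at 5710, 1910 and 2370 against 2650, 857 and 1500. Pdgfrb, a marker of pericytes and fibroblasts, had a mean of 146 on day 4 in Mll1-deleted and 352 in wild-type cultures. On days 1 and 2 its means were 174 and 164 against 359 and 468, and in dividing cultures 150 against 97.7. The part of these cells in the protease results was not tested.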
